A study of Mus musculus with 7 samples.

Results

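The transcriptome of wildtype (WT) ovarian stromal tissue was described at 8 h post-hCG from 4 of the 7 RNA-seq samples of the study, those labelled PGR +/+ and numbered WT1 to WT4. Each is a pool of tissue from 3 mice and is called a pool, 1 to 4, from here on. The mice were females of the PRKO line, which carries the Pgrtm1Bwo allele of the progesterone receptor gene *Pgr*, and the 4 pools came from littermates without that allele. They were given 5 IU of PMSG (equine chorionic gonadotropin, which drives follicle growth), then 5 IU of hCG (human chorionic gonadotropin, which acts on the LH receptor as the ovulatory surge does) 44 h later. Their age was 21 to 25 days by the series description and 21 to 27 days by the protocol of the samples. The other 3 samples are *Pgr* KO pools and were not analysed here.

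The tissue was what remained of the ovary after repeated puncture to release granulosa cells. It was neither sorted nor dissociated, so a level measured in it is an average over the cell types present. In such bulk tissue, fewer cells of a type and less RNA per cell cannot be told apart. The deposited files held 54641313, 50390879, 56412704 and 63416875 estimated reads in pools 1 to 4, and 52230 genes could be named from them. A level is given below in TPM, the estimated share of a pool's transcripts that came from a gene, corrected for transcript length. With 4 pools and a single condition there was no comparison of groups and no test of one. Dixon's critical value was used only to mark a pool that stood apart from the others.

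The ovarian stroma holds the cells that surround and support the follicles. Theca cells and interstitial cells take up cholesterol and turn it into progesterone and androgens under LH, and granulosa cells convert the androgens to estradiol by aromatase. Fibroblasts and smooth muscle cells form the follicle wall, blood and lymph vessels feed it, and resident macrophages patrol it. Around ovulation this tissue is remodelled by proteases, and the steroid-producing cells begin to change into luteal cells.

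The RNA of the stromal tissue was concentrated in few genes. At 1 TPM or more in every pool were 14160 genes, of which 12789 were protein-coding, 777 were lncRNA genes and 316 were pseudogenes. The 10 most abundant genes held 15.15% ± 2.33 of all TPM (SD, n = 4 pools), the 100 most abundant 34.03% ± 2.29 and the 1000 most abundant 64.67% ± 1.42. The share of the 100 most abundant genes was 37.41%, 33.33%, 33.01% and 32.38% in pools 1 to 4, so that pool 1 stood above the other 3. Pool 1 needed 271 genes to reach 50% of its TPM, and pools 2 to 4 needed between 359 and 364.

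Genes of the mitochondrial genome, which encode subunits of the respiratory chain and of ATP synthase, took the first 6 places. Others of its 13 genes ranked lower, down to *mt-Nd6* at rank 1510 with 97.5 TPM. Together the 13 held 18.93%, 14.8%, 13.79% and 12.89% of the TPM of pools 1 to 4. All 13 were highest in pool 1. The first place went to *mt-Atp8*, a subunit of ATP synthase, at 42056 ± 6478 TPM (SD, n = 4). Its transcript is so short that its effective length, the number of positions at which a fragment can start, was 51.9 bases. By reads, *mt-Co1* (a subunit of cytochrome c oxidase) was far above it, with a mean of 832114 reads against 83096 for *mt-Atp8*. Because TPM is a share, more mitochondrial RNA in pool 1 lowers every other gene there. Wherever the order of the pools matters below, it was therefore taken from TPM rescaled so that the nuclear protein-coding genes sum to the same total in each pool, and this is called rescaled TPM. For the nuclear genes of the gene lists that are said below to be highest or lowest in a pool, the same pool was at that end by rescaled TPM and by CPM (read counts scaled to library size by the TMM method, with no length correction) unless the text says otherwise. The order of the other pools could change with the scale, so that *Cyp17a1*, highest in pool 3 by TPM, was highest in pool 1 by CPM.

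**Figure D1:**
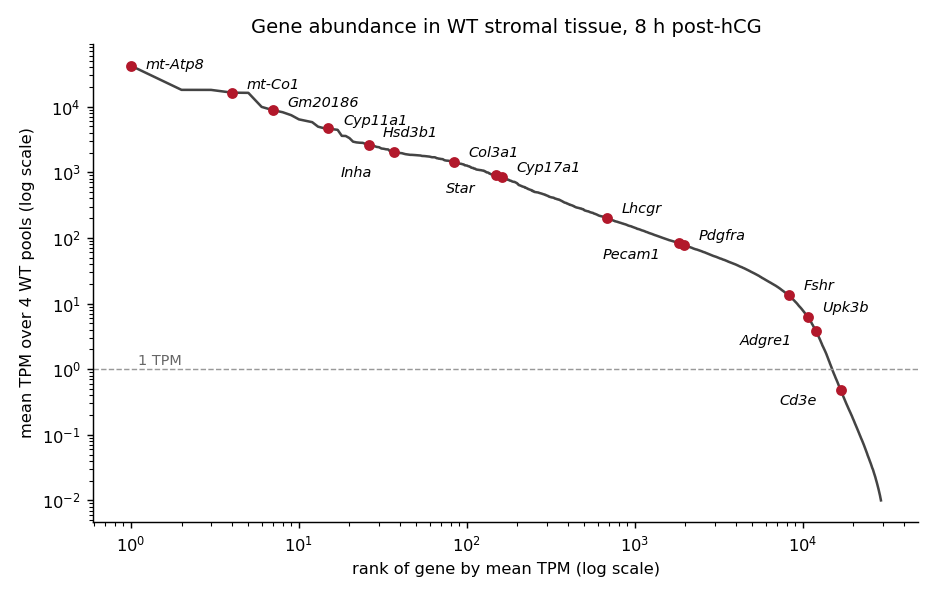
Mean TPM over the 4 WT pools against the rank of each gene, both on log scales, for genes at a mean of 0.01 TPM or more, with named genes as red points and 1 TPM as a dashed line. *Cyp11a1* lies at rank 15 of all genes, *Star* and *Cyp17a1* at ranks 149 and 161, and *Adgre1* at rank 11930.

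Among nuclear genes, the leading places mixed the translation machinery with products of steroid-making and matrix-making cells. The translation elongation factor gene *Eef1a1* came first among nuclear protein-coding genes at 6399 ± 344 TPM (SD, n = 4). *Cyp11a1*, on chromosome 9 from 57913694 to 57935933 (GRCm39), encodes the enzyme that cleaves the cholesterol side chain, the first step of steroid synthesis. It came second, with 3693, 4707, 4664 and 5606 TPM in pools 1 to 4. It was lowest in pool 1 and highest in pool 4. *Sparc*, a matrix protein of connective tissue, came 9th at 2854 ± 200 TPM and *Hsd3b1*, which makes progesterone from pregnenolone, 12th at 2643 ± 464 TPM. *Inha*, the inhibin alpha subunit, had 2034 ± 351 TPM, *Mgp*, an inhibitor of matrix calcification, 2019 ± 293 TPM, and *Fdx1*, the ferredoxin that passes electrons to *Cyp11a1*'s product, 1965 ± 236 TPM. The 84 genes of cytosolic ribosomal proteins together held 10.55% ± 0.269 of TPM, and their summed share differed less between pools than that of the mitochondrial genes. Of the protein-coding genes, 106 had a mean of 1000 TPM or more and 1356 had a mean of 100 TPM or more.

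Several high ranks belonged to genes whose sequence is shared with another gene. A read of such a stretch cannot be placed by its letters, and the estimate splits it. Of the 100 most abundant genes, 35 had at least 50% of the 100-base windows of their leading transcript also in a transcript of another gene, against 4.18% of the 14147 genes at 1 TPM or more whose leading transcript is long enough. Among ribosomal protein genes this held for 20 of 81 (24.7%) and among pseudogenes for 149 of 314 (47.5%). *Cyp11a1*, *Hsd3b1*, *Sparc*, *Inha*, *Mgp*, *Fdx1*, *Scarb1*, *Col3a1* and *Col4a1* shared no window. The choice of the gene pairs below was made with their values in view.

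The pseudogene *Gm29216*, on chromosome 1 from 24654787 to 24655278, ranked 11th at 6076 ± 1256 TPM. Over 483 bases its transcript matched *mt-Co1* at 99.79%, with a single mismatch. In the stretch of 120 bases printed here, each sequence carries that mismatch in a capital, and the transcripts are those of GENCODE M39.
mt-Co1-201: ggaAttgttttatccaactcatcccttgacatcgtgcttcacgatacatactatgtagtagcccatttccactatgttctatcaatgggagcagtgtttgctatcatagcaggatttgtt
Gm29216-201: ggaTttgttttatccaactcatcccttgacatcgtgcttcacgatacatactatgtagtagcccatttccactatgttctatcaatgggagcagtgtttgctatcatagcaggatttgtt

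*Gm29216* followed *mt-Co1* from pool to pool. *mt-Co1* had 21083, 16504, 14429 and 13342 TPM in pools 1 to 4, and *Gm29216* had 7826, 6139, 5259 and 5078 TPM. The order of the pools was the same in both. The neighbouring pseudogene *Atp6-ps*, on chromosome 1 from 24653055 to 24653732, is identical to *mt-Atp6* over 678 bases. There the estimates of the copies moved apart. *Atp6-ps* had 1448, 854, 3587 and 1085 TPM, with a CV (SD over mean) of 71.9%, and was highest in pool 3. *mt-Atp6* had 22944, 18035, 14957 and 16188 TPM and was lowest in pool 3. Their sums, 24392, 18889, 18544 and 17273 TPM, fell in the order that the other mitochondrial share had, with a CV of 16%.

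Some noncoding genes of high rank matched each other over part of their length. *Gm20186*, an lncRNA gene on chromosome 6 from 18842931 to 18848534, ranked 7th at 8848 ± 1150 TPM. *Gm12840*, an lncRNA gene on chromosome 4 from 117557385 to 117558120, ranked 12th at 5803 ± 795 TPM. A transcript of each, of 470 and 627 bases, matched over 215 bases at 99.07%, and 7.01% and 14.2% of their 100-base windows were also in another gene. A stretch of 120 bases from the matching part is shown because it holds both mismatches, in capitals.
Gm20186-202: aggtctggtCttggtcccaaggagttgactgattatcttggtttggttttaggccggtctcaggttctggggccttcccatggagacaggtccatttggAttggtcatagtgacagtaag
Gm12840-201: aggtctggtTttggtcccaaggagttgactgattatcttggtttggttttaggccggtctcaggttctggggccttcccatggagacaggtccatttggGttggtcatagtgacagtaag

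The gene in 17th place was annotated as an olfactory receptor, *Or5m3b*, at 4434 ± 560 TPM. Its transcript was 316 bases long, and 158 of them matched bases 780 to 937 of Gm20186-201 at 96.2% in GENCODE M39. That transcript is 3715 bases long in M39 and 737 bases long in the files, and whether the shorter version holds the stretch was not tested. *Or5m3b* shared no exact 100-base window with another gene. All 3 genes were higher in pools 2 and 4 than in pools 1 and 3, with 7828, 9916, 7879 and 9768 TPM for *Gm20186* and 3836, 5021, 4092 and 4785 TPM for *Or5m3b*. The same held for *Gm12840*, with 5066, 6608, 5175 and 6361 TPM.

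For several ribosomal protein genes, a transcript of the coding gene had a low value and a copy of it elsewhere in the genome had a high value. The transcript Rpl5-201 had a mean of 24.2 TPM and Gm70833-201, identical to it over 1018 bases, had 1276 TPM. Rpl12-201 had 26.1 TPM, and Gm68527-201, identical over 509 bases, had 1809 TPM. Rps2-201 had 6.29 TPM and Gm58349-201, 99.46% identical over 926 bases, had 1234 TPM. *Rps27rt*, a retrotransposed copy annotated as coding, had 3315 TPM, while Rps27-201 had 212 TPM. The CV of Rps27-201 was 38.2%, that of Rps27rt-201 was 8.15% and that of their sum was 5.39%. These alignments are of the M39 sequences, in which Rpl5-201 has 3646 bases against 2045 in the files. How the estimate divided reads within a pair was not tested.

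Cell types were read from 24 lists of marker genes. As a yardstick, 59.4% of all 21542 protein-coding genes were at 1 TPM or more in every pool, and the median level was 4.72 TPM over all protein-coding genes and 19.5 TPM over those at 1 TPM or more. All 13 genes of the theca and interstitial steroid-producing list passed 1 TPM in every pool, as did all 14 of fibroblasts, 11 of smooth muscle, 8 of pericytes, 13 of blood endothelium, 12 of macrophages, 12 of granulosa cells, 4 of luteal cells and 13 of oocytes. The medians of these lists ran from 276 TPM for the steroid-producing cells through 175 TPM for fibroblasts and 77.1 TPM for smooth muscle to 9.47 TPM for macrophages. None of 6 B cell genes and none of 4 eosinophil genes passed, 1 of 10 T and NK cell genes did, and 3 of 10 neutrophil genes.

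**Figure D2:**
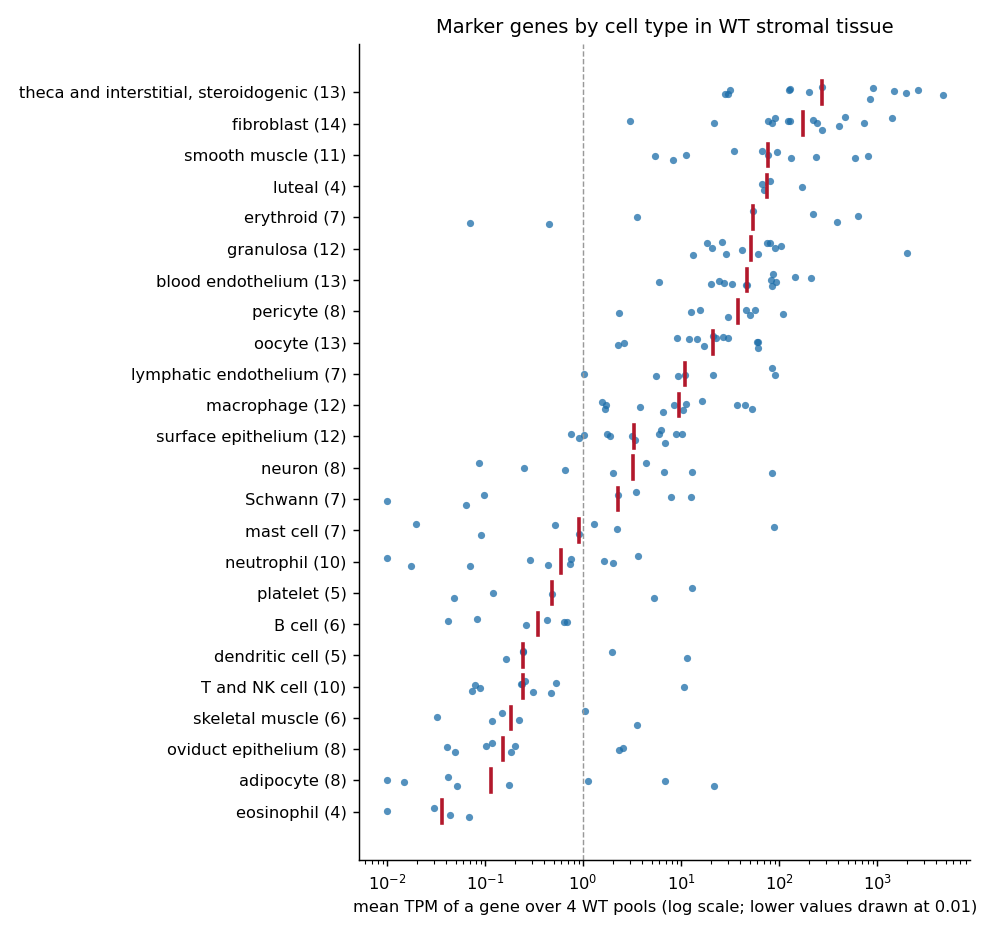
Each point is the mean TPM of a marker gene over the 4 WT pools, on a log scale, for 24 cell type lists with their number of genes in parentheses. The red bars are list medians, which fall from 276 TPM for steroidogenic cells to under 1 TPM for most lists of white blood cells, and the dashed line marks 1 TPM.

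The defining marker of each main cell type was at 1 TPM or more in every pool, at levels that ran over more than 2 orders. *Cyp17a1*, the androgen-making enzyme of theca cells, on chromosome 19 from 46655604 to 46661611, had 1012, 846, 1082 and 430 TPM in pools 1 to 4. It was clearly lower in pool 4 than in the others. *Star*, which carries cholesterol into mitochondria, on chromosome 8 from 26296583 to 26306010, had 601, 940, 659 and 1404 TPM and was highest in pool 4. *Pdgfra*, the platelet-derived growth factor receptor of fibroblasts, had 86.6, 76.2, 82 and 65.7 TPM. *Myh11*, the smooth muscle myosin heavy chain, had 104, 84.6, 111 and 78.7 TPM. Both were lowest in pool 4. *Pecam1*, an adhesion molecule of endothelium, had 81.5, 87, 87.6 and 77.1 TPM, *Fshr*, the FSH receptor of granulosa cells, 13.4, 13.2, 14.9 and 11.7 TPM, and *Adgre1*, the F4/80 antigen of macrophages, 3.92, 3.75, 3.39 and 4.29 TPM. *Upk3b*, a marker of the ovarian surface epithelium, had 4.22, 8.91, 4.24 and 7.54 TPM and was higher in pools 2 and 4.

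The list of theca and interstitial steroid-producing cells had the highest median of the cell type lists. Its 13 genes summed to 11249, 12943, 13420 and 15688 TPM. The tissue also held RNA of granulosa and luteal genes, and which cells made the RNA of these 13 genes was not tested. Beside *Cyp11a1* and *Hsd3b1*, the list held *Scarb1*, the receptor that takes up cholesterol from HDL, at 1485 ± 306 TPM (SD, n = 4) and *Fdxr*, the reductase that feeds *Fdx1*'s product, at 276 TPM. *Lhcgr*, the receptor through which hCG acts, had 176, 183, 211 and 229 TPM. *Nr5a1*, the nuclear receptor known as SF-1 that drives steroidogenic genes, had 120, 126, 130 and 128 TPM and hardly differed between pools. *Insl3*, a peptide hormone of theca cells, had 153, 137, 155 and 70.2 TPM and was low in pool 4 as *Cyp17a1* was. The Hedgehog targets *Ptch1*, *Gli1* and *Hhip*, which theca cells express in answer to follicular Hedgehog ligands, lay between 28 and 31.8 TPM.

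The rest of the path from cholesterol to steroid hormones was uneven. Of its 21 genes, 18 were at 1 TPM or more in every pool. *Cyb5a*, the cytochrome b5 that aids androgen formation, had 483 TPM and *Por*, the electron donor of microsomal P450 enzymes, had 175 TPM. *Hsd17b7*, known from luteal estradiol synthesis, had 171 TPM. *Akr1c14* had 137 TPM and *Akr1c18*, which inactivates progesterone, had 38.5, 111, 49.3 and 70.4 TPM. *Cyp19a1*, the aromatase of granulosa cells, had 46.2, 19.2, 37.5 and 11.4 TPM and was high in pools 1 and 3. *Sult1e1*, the estrogen sulfotransferase, had 28.9, 86.6, 50.5 and 74.9 TPM and was high in pools 2 and 4. *Hsd17b3*, the testis enzyme that makes testosterone, had 0.0735 TPM.

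Fibroblast genes were led by collagens. *Col3a1* had 1622, 1289, 1455 and 1332 TPM and *Col1a2* 910, 597, 844 and 600 TPM. The proteoglycan gene *Dcn* (decorin) had 526, 342, 464 and 316 TPM, and *Lum* (lumican) 172, 97.9, 133 and 112 TPM. Each of these 4 genes was highest in pool 1. *Tcf21* and *Nr2f2*, transcription factors of mesenchyme, had 123 and 91 TPM, with CVs of 5.37% and 5.23%. *Pi16*, a marker of adventitial fibroblasts, had 2.99 TPM. Over all 44 collagen chain genes, 35 were at 1 TPM or more in every pool, and the basement membrane chains *Col4a1* (1694 TPM) and *Col4a2* (739 TPM) stood beside the fibrillar chains *Col3a1* (1424 TPM), *Col1a2* (738 TPM) and *Col1a1* (469 TPM). The cartilage collagen *Col2a1* had 0.0287 TPM.

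Smooth muscle genes had a lower median than fibroblast genes, with several members at high levels. *Acta2*, smooth muscle actin, had 815 ± 88.9 TPM (SD, n = 4), *Tagln* (transgelin) 593 ± 39.6 TPM and *Actg2* 238 TPM. *Myocd*, the coactivator that switches on the contractile genes, had 8.29 TPM. Pericyte genes ranged from *Mcam* at 110 TPM and *Pdgfrb* at 56.7 TPM to *Higd1b* at 2.33 TPM. Blood endothelium was led by *Egfl7* at 212 TPM and *Eng* at 146 TPM, and its VEGF receptors *Kdr* and *Flt1* had 46.8 and 24.2 TPM. Of the lymphatic genes, *Ccl21a*, a chemokine of lymph vessels, had 83, 102, 105 and 47.3 TPM and was low in pool 4. *Lyve1* had 21.4 TPM and *Prox1*, the transcription factor that defines lymphatic identity, 1.02 TPM.

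Among the lists of white blood cells, that of macrophages alone had more than 1 gene at 10 TPM or more. Their complement genes *C1qa*, *C1qb* and *C1qc* had 52.6, 45.1 and 37.4 TPM, with CVs of 10.7%, 10.8% and 10.6%. *Csf1r*, the receptor for the macrophage growth factor, had 10.4 TPM. The highest neutrophil gene was *S100a9* at 3.62 TPM, and *Ly6g* had 0.0176 TPM. *Cd3e* had 0.474 TPM and *Cd79a* 0.689 TPM.

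Some lists rested on a single gene that its partners did not follow. *Hdc*, the histamine-forming enzyme of mast cells, had 84, 78.9, 84.2 and 111 TPM. The mast cell proteases *Cma1* and *Cpa3* had 1.3 and 0.901 TPM, and the IgE receptor gene *Fcer1a* had 0.0197 TPM. *Gzmb*, the granzyme of killer cells, had 6.59, 13.2, 10.1 and 13.2 TPM, while *Nkg7* and *Cd8a* had 0.253 and 0.0889 TPM. *Plin1* and *Retn*, known from fat cells, had 21.9 and 6.89 TPM while *Adipoq* had 0.176 TPM and *Lep* 0.00216 TPM. *Uchl1*, a ubiquitin hydrolase of neurons that oocytes also make, had 85.5 TPM while *Syt1* and *Elavl4* had 0.649 and 0.249 TPM. In these 4 lists the most abundant gene held 94.7%, 82.6%, 72.5% and 76% of the summed level, so that the sum is in effect the level of that gene. Of the red cell genes, the globin genes *Hbb-bs* and *Hba-a2* had 637 and 390 TPM, *Alas2*, the heme-forming enzyme of red cells, had 3.59 TPM, and the membrane protein gene *Slc4a1* had 0.0709 TPM.

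For the remaining lists, the number of genes at 1 TPM or more in every pool was set beside the 59.4% of all protein-coding genes. Of 12 surface epithelium genes, 8 were at 1 TPM or more in every pool. The keratin genes of that layer, *Krt8* and *Krt19*, had 10.3 and 6.91 TPM, with *Krt19* at 4.69, 9.46, 3.17 and 10.3 TPM in pools 1 to 4, higher in pools 2 and 4 as *Upk3b* was. *Cdh1*, the adhesion molecule of most epithelia, had 0.752 TPM. Of 7 Schwann cell genes, 4 passed, with the myelin gene *Mbp* at 12.8 TPM and the defining transcription factor *Sox10* at 0.0966 TPM. Of 8 neuron genes, 5 passed, and *Th*, the enzyme of sympathetic nerves, had 2.04 TPM. The shares that passed for surface epithelium (66.7%), Schwann cells (57.1%) and neurons (62.5%) were near that of all protein-coding genes. By themselves these counts do not mark the cell types. Of 5 platelet genes, 2 passed, *Pf4* at 12.8 TPM and *Itga2b* at 5.25 TPM. Of 5 dendritic cell genes, 2 passed, and the higher, *Zbtb46* at 11.6 TPM, is also known from endothelium. In the other lists, 6 of 7 lymphatic, 3 of 7 mast cell, 2 of 8 fat cell, 2 of 8 oviduct and 1 of 6 skeletal muscle genes passed, as did 5 of the 7 red cell genes that could be matched and none of the 4 Y chromosome genes.

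Granulosa and oocyte genes were measured in tissue labelled as depleted of granulosa cells. The 12 granulosa genes summed to 2965, 2281, 3003 and 2130 TPM, of which *Inha* held 78.4%. *Amh*, the anti-Müllerian hormone of small growing follicles, had 76.5, 54, 117 and 55.6 TPM, *Inhba* 133, 80.8, 102 and 50.1 TPM and *Inhbb* 82, 49.3, 72.3 and 38.8 TPM. All 3 were lower in pools 2 and 4 than in pools 1 and 3. *Foxl2*, the transcription factor that keeps granulosa identity, had 42.3 TPM with a CV of 6.23%. The oocyte genes *Zp2*, *Zp3* and *Gdf9*, which encode coat proteins of the egg and a growth factor from it, had 60.9, 60.4 and 58.9 TPM. *Figla* and *Sohlh1*, transcription factors of early oocytes, had 2.26 and 2.61 TPM. Genes of the oviduct epithelium were near the floor, with *Ovgp1* at 2.32 TPM and *Foxj1* at 0.201 TPM. The Y chromosome genes *Ddx3y* and *Eif2s3y*, a check in female tissue, had 0 and 0.00404 TPM, while *Uty* and *Kdm5d* had 0.743 and 0.426 TPM. Levels under 1 TPM in the other lists are to be read beside these.

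The receptors of the tissue ran from gonadotropin and growth factor receptors to those hardly detected. Of 28 receptor genes, 24 were at 1 TPM or more in every pool, with a median of 29.8 TPM. *Lhcgr* was the highest at 200 TPM. The prolactin receptor gene *Prlr* had 81.7 TPM, *Fgfr2* 72.6 TPM, the prostaglandin F receptor gene *Ptgfr* 69.7 TPM and *Amhr2*, the receptor for AMH, 47.8 TPM. *Oxtr*, the oxytocin receptor gene, had 28.8, 31, 35 and 65.3 TPM and was highest in pool 4. *Ednra* and *Ednrb*, through which endothelin acts on the follicle wall, had 36.8 and 17.8 TPM. The prostaglandin E receptors *Ptger4* and *Ptger2* had 7.22 and 4.5 TPM, and *Ptger1* and the relaxin receptor gene *Rxfp1* had 0.804 and 0.0142 TPM.

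All 35 genes of secreted signals were at 1 TPM or more in every pool. After *Inha*, the highest were *Vegfa*, the main signal of vessel growth, at 134 TPM, *Insl3* at 129 TPM, the chemokine gene *Cxcl12* at 100.3 TPM and *Fst*, which binds activin, at 97.1 TPM. *Ihh* and *Dhh*, the Hedgehog ligands, had 14.9 and 5.81 TPM. *Edn2*, the endothelin of ovulating follicles, had 1.82, 6.02, 5.89 and 5.47 TPM and was low in pool 1 alone. *Agt*, the angiotensin precursor, had 36.6, 38.1, 27.4 and 60.3 TPM.

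Of 48 nuclear receptor genes, 36 were at 1 TPM or more in every pool, with a median of 8.25 TPM. *Nr4a1*, an early response gene of gonadotropin signalling, was the highest at 316 ± 16.1 TPM (SD, n = 4), followed by *Nr5a1* at 126 TPM, *Nr2f2* at 91 TPM and *Nr5a2* at 80.4 TPM. *Pgr*, on chromosome 9 from 8899830 to 8968612, had 4.34, 8.04, 5.43 and 4.22 TPM and ranked 10425th among nuclear protein-coding genes. It was highest in pool 2. Other steroid receptors were in the same range, with *Esr2* at 20.7 TPM, the glucocorticoid receptor gene *Nr3c1* at 14.4 TPM and *Esr1* at 4.4 TPM. *Rora* differed most among those above 5 TPM, with 5.21, 9.24, 7.89 and 15.5 TPM. *Hnf4g* was at 0 in every pool.

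Genes known from the ovulatory response were measured at levels from 2.71 to 1087 TPM. All 25 were at 1 TPM or more in every pool. The protease genes *Ctsl* (cathepsin L) and *Plau* (urokinase) had 1087 and 499 TPM and *Timp1*, an inhibitor of metalloproteinases, 927 TPM. *Adamts1*, which cleaves versican, had 133 TPM and its substrate *Vcan* had 132, 235, 152 and 212 TPM. The EGF-like ligands *Ereg*, *Btc* and *Areg* had 135, 31.5 and 10.7 TPM, *Ptgs2*, the inducible prostaglandin synthase, had 27.5 TPM, and *Has2*, which makes hyaluronan, had 2.71 TPM. *Runx2* had 27, 67.3, 42.7 and 76.7 TPM and *Il6* 6.2, 14.4, 10 and 16 TPM. Both were lowest in pool 1. The 20 immediate early genes, which respond within minutes to a stimulus, were led by *Fos* at 463 TPM, *Nr4a1* at 316 TPM and *Junb* at 189 TPM, while *Egr1* had 15.8 TPM. The time between removal of the ovary and freezing is not given in the sources used here.

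The 4 pools were alike over most genes. The median CV between pools was 9.55% over the genes at 1 TPM or more, and 7543 of them (53.3%) had a CV under 10%. The highest pool exceeded the lowest by a median factor of 1.24, and 590 genes reached a factor of 2. The median CV was 13.4% for 4960 genes of 1 to 10 TPM, 8.31% for 7728 genes of 10 to 100 TPM, 7.15% for 1342 genes of 100 to 1000 TPM and 5.71% for 130 genes above that. Counting error alone, taken as 1 over the square root of the mean reads, would give medians of 5.46%, 2.05%, 1% and 0.505% in these classes. The common biological coefficient of variation in edgeR was 0.121. Across genes, pairs of pools were correlated by log2(TPM + 1). Pearson's r ran from 0.9857 for pools 1 and 4 to 0.9941 for pools 1 and 3, a description over genes, which are not independent. Pools 1 and 4 had 330 genes 2-fold or more apart, and pools 1 and 3 had 126.

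**Figure D3:**
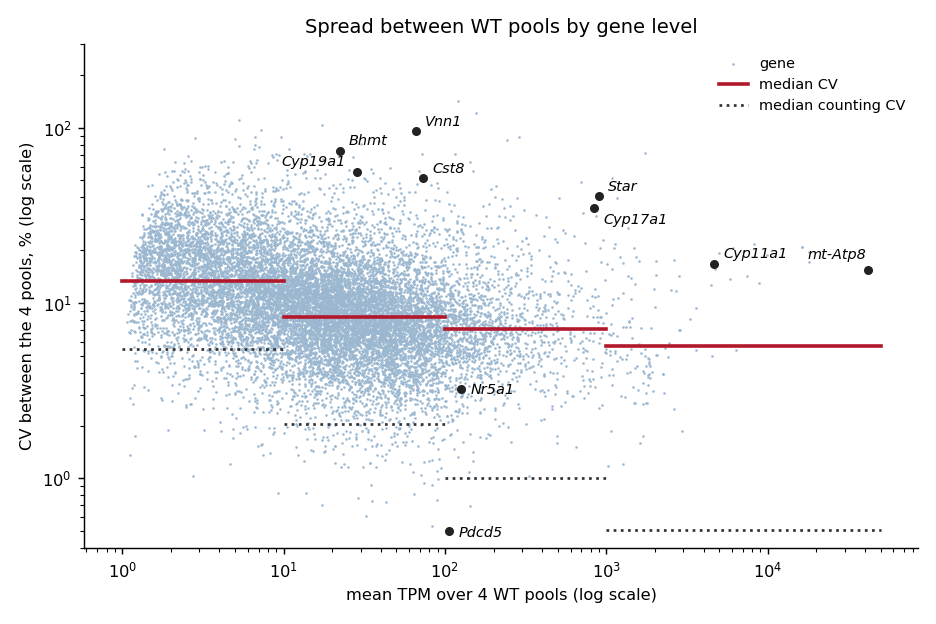
CV between the 4 WT pools against mean TPM, both on log scales, 1 point per gene at 1 TPM or more in every pool, with the median CV (red) and the median counting CV (dotted) of each class of level. *Star* and *Cyp17a1* lie at 40.7% and 34.7%, far above the median of 7.15% for their class, and *Nr5a1* lies at 3.23%.

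Within lists, many genes were highest in the same pool. The share of all 12776 nuclear protein-coding genes at 1 TPM or more that were highest in a given pool by rescaled TPM is the background for the counts that follow: 20% for pool 1, 34.4% for pool 2, 18.8% for pool 3 and 26.7% for pool 4. Of 14 fibroblast genes, 13 were highest in pool 1, against 20% of all genes. Of 13 oocyte genes, 11 were highest in pool 3, against 18.8%. Of the 25 genes of the ovulatory response, 17 were highest in pool 2, against 34.4%. Of the 8 surface epithelium genes that passed, 6 were highest there too. Of 13 steroid-producing cell genes, 7 were highest in pool 4, against 26.7%. By CPM in place of rescaled TPM, these counts were 13, 10, 14, 5 and 6, and the backgrounds were 31.2% for pool 1, 19.7% for pool 2, 15.6% for pool 3 and 33.4% for pool 4. On that scale the steroid-producing list had no leading pool, with 6 genes highest in pool 1 and 6 in pool 4. For blood endothelium the choice of scale decided which pool led. By rescaled TPM 6 of 13 genes were highest in pool 1, and by CPM all 13 were. The low end did not depend on the scale, with 11 of the 13 lowest in pool 4 on both. By rescaled TPM, 34.1% of all genes were lowest in that pool. The members of a list share the same 4 pools, so their counts are not independent of each other, and no test was made.

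**Figure D4:**
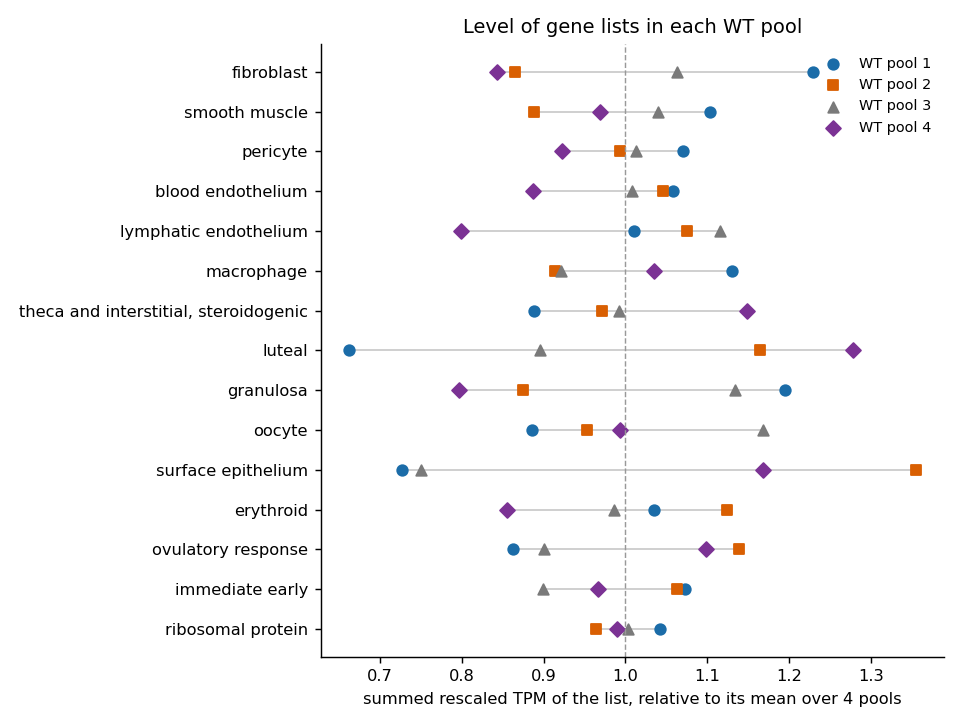
Summed rescaled TPM of 15 gene lists in each WT pool, divided by the mean of the 4 pools, which is drawn as a dashed line at 1. Pool 1 is highest for fibroblast genes and lowest for luteal genes, and pool 2 is highest for surface epithelium and the ovulatory response.

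In the steroid-producing list, 7 of 13 genes were highest in pool 4 and 5 were lowest there by rescaled TPM. Of all genes, 26.7% were highest and 34.1% were lowest in that pool, so the count of 5 was near the share of all genes. By rescaled TPM, *Cyp11a1*, *Hsd3b1*, *Fdx1*, *Scarb1*, *Star*, *Fdxr* and *Lhcgr* were highest there, with *Star* at 838, 1247, 861 and 1817 in pools 1 to 4. *Cyp17a1*, *Insl3*, *Nr5a1*, *Ptch1* and *Gli1* were lowest there, with *Cyp17a1* at 1412, 1122, 1413 and 556, *Insl3* at 214, 182, 202 and 90.9 and *Gli1* at 54.4, 35.6, 38.2 and 22.1. The highest pool exceeded the lowest by a factor of 2.17 for *Star*, 2.54 for *Cyp17a1*, 2.35 for *Insl3* and 2.46 for *Gli1*. For *Nr5a1* that factor was 1.02, and its CV was 0.922% in rescaled TPM and 3.23% in TPM. By CPM, 6 of the 7 genes were still highest in pool 4, with *Lhcgr* the exception, and 4 of the 5 were still lowest in it, with *Nr5a1* the exception.

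Luteal and granulosa genes differed between pools as well. All 4 luteal genes were lowest in pool 1, where 38.6% of all genes were lowest. They were highest in pools 2 and 4, and *Hsd17b7* had 108, 163, 159 and 255 TPM. *Akr1c18* differed by a factor of 2.75 by rescaled TPM and *Ptgfr* by a factor of 1.97. Of the 12 granulosa genes, 7 were lowest in pool 4 by rescaled TPM, where 34.1% of all genes were lowest. By CPM 6 of them were, and the share of all genes was not taken on that scale. *Cyp19a1* differed by a factor of 4.36, *Inhba* by 2.86 and *Inhbb* by 2.28, each highest in pool 1. *Fshr*, *Foxl2* and *Gatm* differed little, with CVs in TPM of 9.97%, 6.23% and 3.92%. *Nr5a2*, *Foxl2*, *Slc18a2* and *Esr2* were highest in pool 4.

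**Figure D5:**
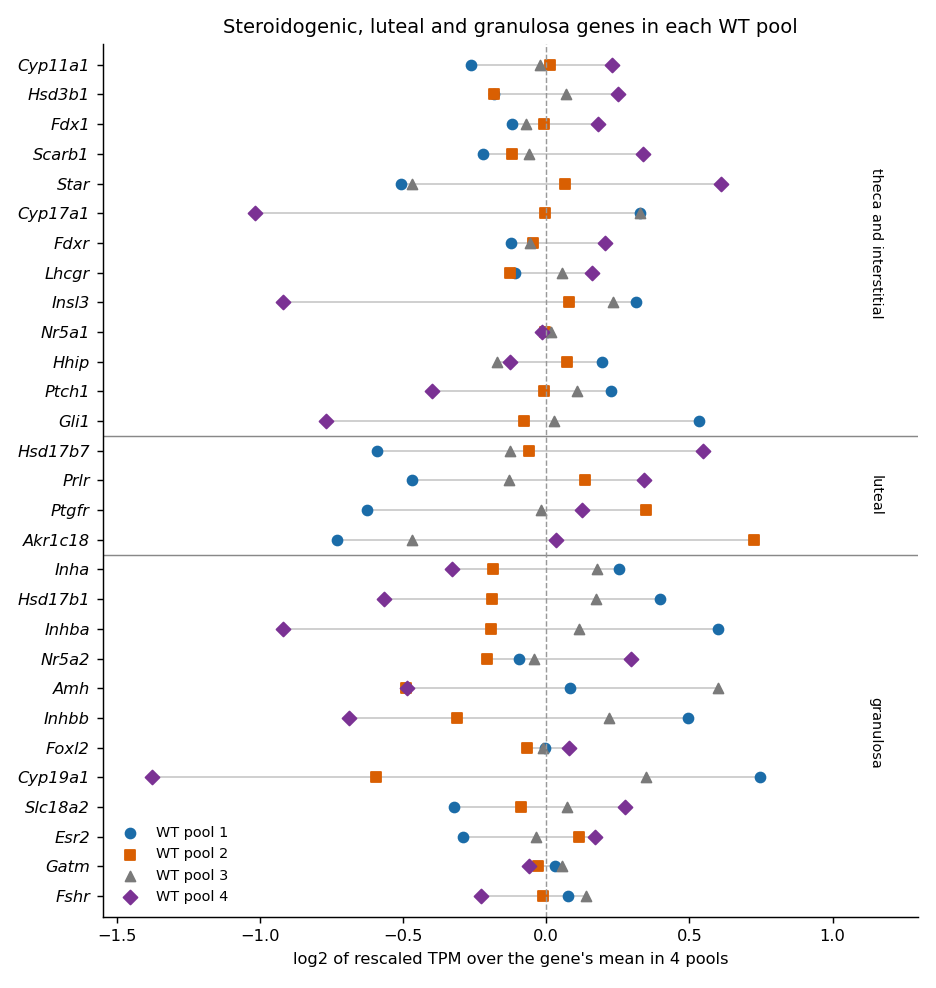
Log2 of rescaled TPM over the mean of the 4 WT pools for each gene of the steroidogenic, luteal and granulosa lists, 1 symbol per pool. Pool 4 is at the left end for *Cyp17a1*, *Insl3*, *Gli1*, *Cyp19a1* and *Inhba* and at the right end for *Star*, *Scarb1* and *Hsd17b7*.

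The 25 protein-coding genes with the highest CV at a mean of 10 TPM or more were led by cases of different kinds. *Vnn1*, a pantetheinase, on chromosome 10 from 23770586 to 23781241, had 9.14, 75.9, 28.8 and 152 TPM. *Bhmt*, an enzyme of methionine metabolism, had 12.8, 12, 17.8 and 46.9 TPM and *Plin5*, a lipid droplet protein, 7.04, 9.59, 12 and 29.6 TPM. Both were highest in pool 4 alone. *Sema3d*, a guidance cue, had 7.14, 19.6, 7.9 and 7.48 TPM and was high in pool 2 alone. Of the 25 genes, 17 were highest in pool 4, 7 in pool 2 and 1, *Cyp19a1*, in pool 1, by TPM and by rescaled TPM. Of all nuclear protein-coding genes at 1 TPM or more, 34.1% were highest in pool 4 by TPM and 26.7% by rescaled TPM. For pool 2 these shares were 31.2% and 34.4%, so the 7 genes there were no more than the share of all genes. *Zfp865*, among the 17, was lowest in pool 4 by CPM. Others of the 25 were *Ssu2*, *Rab27a*, *Pla2g5*, *Cited1*, *Prkg2*, *Parm1* and *Adcyap1*, the gene of the neuropeptide PACAP. *Cst8*, a cystatin, had 45.7, 52.5, 67.7 and 129 TPM.

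For a few of these the CV was far smaller in CPM, which has no length correction, or 1 pool was at 0. *Cplane1* had a CV of 103% in TPM and of 7.59% in CPM, and *Zfp865* had 57.9% and 2.79%. *Gm49450* had 8.48, 28 and 25.7 TPM in pools 1, 2 and 4 and 0 in pool 3. For *Vnn1* both scales gave the same spread, with 95.5% in TPM and 95.3% in CPM.

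At the other end, the 15 genes with the lowest CV, among them *Eny2*, *Uba2* and *Jam3*, had means from 13.7 to 142 TPM. *Pdcd5* had 106, 107, 107 and 105 TPM and *Rap1b*, a small GTPase, 104, 103, 103 and 104 TPM. *Mrps12*, of the mitochondrial ribosome, had 82.9 TPM with a CV of 0.534%. Their order depended on the scale, since *Pdcd5* had a CV of 0.499% in TPM, 3.41% in rescaled TPM and 5.18% in CPM.

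Promoters were read for the lists whose regulators are known, from 250 bases before to 50 bases after the start of the canonical transcript (GRCm39, GENCODE M39). The half-site CAAGGNCA, to which *Nr5a1*'s product binds, was searched on both strands. It was found in 6.42% of 21529 nuclear protein-coding promoters and in 5.46% of the 12776 at 1 TPM or more. It was in 0 of 13 promoters of the steroid-producing list and in 4 of 12 of the granulosa list, those of *Amh*, *Cyp19a1*, *Slc18a2* and *Gatm*. It was also in 2 of 14 of the fibroblast list, those of *Dpt* and *Pi16*, in 0 of 11 of smooth muscle, in 0 of 13 of blood endothelium and in 8% of the 100 most abundant nuclear protein-coding genes. The CArG box, to which the serum response factor binds, was found in 1.53% of all promoters and in 1 of 11 of smooth muscle, that of *Tagln*. The TATA box letters TATAAA, from 40 to 15 bases before the start, were in 2.35% of all promoters, 0.939% of those at 1 TPM or more and 0 of the 100 most abundant. These matches are letters in a window and do not show binding. The lack of a match does not show that a site is absent. Sites that differ from the exact letters or lie outside the window were not searched. The 150 bases before the start are printed for 3 genes whose levels are described above, with the motif in capitals. They lie at chr10:80640927-80641076 on the plus strand for *Amh*, at chr9:54100807-54100956 on the minus strand for *Cyp19a1* and at chr9:45847405-45847554 on the minus strand for *Tagln*.
Amh: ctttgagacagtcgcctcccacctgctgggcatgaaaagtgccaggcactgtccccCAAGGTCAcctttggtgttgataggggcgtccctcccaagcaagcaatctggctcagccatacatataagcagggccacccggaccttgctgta
Cyp19a1: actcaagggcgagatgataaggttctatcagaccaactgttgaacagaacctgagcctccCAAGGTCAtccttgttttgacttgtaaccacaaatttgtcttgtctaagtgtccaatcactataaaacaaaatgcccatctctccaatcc
Tagln: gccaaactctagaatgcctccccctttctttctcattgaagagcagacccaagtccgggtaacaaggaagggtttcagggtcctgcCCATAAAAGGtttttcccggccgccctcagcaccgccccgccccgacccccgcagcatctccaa

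The half-site began 94 bases before the start in *Amh*, with another match 204 bases before it that lies outside the printed stretch, and 90 bases before it in *Cyp19a1*, and the CArG box 64 bases before the start in *Tagln*. Of the granulosa genes with the half-site, *Cyp19a1* and *Amh* were both higher in pools 1 and 3 than in pools 2 and 4. *Slc18a2* rose from 19.7 TPM in pool 1 to 32.2 TPM in pool 4, and *Gatm* had a CV of 3.92%. Whether the motif bears on these levels was not tested.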

How the data were processed

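RNA was extracted from granulosa cell-depleted ovaries and sequenced as stranded, paired-end mRNA libraries (TruSeq Stranded mRNA, 100 bp reads). Per the labels, the authors aligned the reads with Salmon to the GENCODE M26 mouse transcriptome (GRCm39); the Salmon version is not given in the sources used here. The authors deposited for each sample the estimated counts (expected counts, reads per transcript), the TPM, and the effective length of 139225 transcripts. Only the 4 WT samples were used, each from a separate pool of 3 mice, with group and number taken from the sample titles.

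Transcripts were matched by Ensembl identifier, without version, to GENCODE M39 on GRCm39 (98.8% of transcripts, 99.37% to 99.4% of reads), and TPM and estimated counts were summed per gene in Python 3.11.15. Rounded counts were normalized in edgeR 4.0.16 (R 4.3.3; TMM, filterByExpr), which gave CPM and the common biological coefficient of variation (estimateDisp, intercept only); size factors came from DESeq2 1.42.0. The code was tested on simulated data. Shared sequence was counted as exact windows of 100 bases, and pairs were aligned with blastn 2.17.0. Counting error and depth refer to estimated reads only. At 50390879 to 63416875 reads, a gene of 10 TPM or more had a median counting CV of at most 2.05%.

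Named are the 25 genes and the 25 nuclear protein-coding genes of highest mean TPM, the 10 highest lncRNA genes, every gene of 34 lists, the 25 most and 15 least variable protein-coding genes at 10 TPM or more, and the 10 highest transcripts; names outside this rule are said to have been chosen after their values were seen. The members and lists were chosen with earlier results of these data known. Alternatives were other detection thresholds, scales, filters and pseudocounts, and the omission of 1 pool at a time. The 3 KO samples were not used here.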

Additional observations from a re-analysis of the deposited data

Results flagged for a closer look

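In 215 sets of 4 pools (181 genes and the sums of 34 lists), a pool was marked when its gap to the next was a larger part of the whole range than Dixon's 95% critical value for 4 samples; chance alone marks about 1 set in 20. This held for 11 genes and for none of the list sums, which is about the number that chance alone would mark. The marks were set on TPM as deposited and can depend on the scale. In pool 4, *Hdc* was high at 111.2 TPM, *Bhmt* was high at 46.95 TPM and *Egfl7* was low at 172.7 TPM. By rescaled TPM, *Hdc* had 117, 105, 110 and 144 and *Egfl7* had 319, 303, 286 and 223 in pools 1 to 4. For both, the gap was a smaller part of the range on that scale. In pool 2, *Sema3d* was high at 19.65 TPM and *Adamts1* at 153.4 TPM. In pool 1, *Edn2* was low at 1.825 TPM. In pool 3, *Gatm* was high at 19.62 TPM, but by rescaled TPM it had 25.2, 24.2, 25.6 and 23.7 in pools 1 to 4, and by CPM it was highest in pool 1. The other 4 were genes under 1 TPM, with *Adipoq* at 0.4843, *Eif2s3y* at 0.01615 and *Lep* at 0.008635 TPM in pool 3 and *Col2a1* at 0.06125 TPM in pool 1.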

How the results depend on the processing

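With at least 0.5 TPM, at least 5 TPM, at least 10 estimated counts, or 1 TPM in any pool in place of 1 TPM in every pool, 15515, 10763, 17762 and 15712 genes were detected, each within 1.5 times of 14160. The 100 most abundant genes held 20.43% of estimated counts and, over nuclear protein-coding genes alone, 23.82% of TPM. The median CV between pools was 7.619% by TMM-normalized CPM, 7.626% by CPM with median-of-ratios size factors, 7.881% over genes at 10 TPM or more, 24.13% with no threshold, and 8.169% by rescaled TPM. The common biological coefficient of variation was 0.1326 with no filter. Leaving out 1 replicate gave 14227 to 14356 genes, a share of 32.91% to 34.59%, a median CV of 7.866% (without replicate 1) to 10.22%, and a coefficient of 0.1015 to 0.1341. The summed levels of the lists moved by less than 1 SD between pools in all 136 such repeats. With so few pools, dropping 1 cannot move a mean by 1 SD, so this count was fixed in advance. The sums moved by more in 28 of 34 lists by CPM and in all 33 with a rescaled value. Without their most abundant gene they moved by more in 33 of 34 lists. CPM and rescaled TPM are on other scales than TPM, and removing a gene always lowers a sum. None of these counts therefore shows how stable the sums are. No paired analysis was possible because these results come from no test between groups and from 1 group. Depth limits genes under 10 TPM most, where the median counting CV was 5.46%.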
